A study of Mus musculus with 6 samples.

Results

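The expression of 10 heat shock genes of the cytosol and the mitochondria was followed in MIN6 cells with and without activation of *Thada*. The genes were taken by symbol from the deposited count files, in which they are 10 of 16640 genes. They are the HSP70 genes *Hspa8*, *Hspa1a* and *Hspa1b*, the HSP110 gene *Hsph1*, the J-domain genes *Dnaja1* and *Dnajb1*, the HSP90 genes *Hsp90aa1* and *Hsp90ab1*, and the mitochondrial chaperonin genes *Hspd1* and *Hspe1*. All 10 were found in the files and all 10 passed the filter on low counts.

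Heat shock proteins are molecular chaperones that keep other proteins from misfolding. In the cytosol, HSP70 binds unfolded stretches of its clients in a cycle driven by ATP, J-domain proteins deliver the clients, HSP110 exchanges the spent nucleotide, and HSP90 acts later on partly folded kinases and receptors. In the mitochondrial matrix, HSP60 forms a folding chamber that HSP10 closes. Many of these genes are under the control of heat shock factor 1 (HSF1), which binds heat shock elements in their promoters when unfolded protein builds up. β-cells fold proinsulin in the endoplasmic reticulum, a compartment with chaperones of its own that are not among these 10.

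The MIN6 line was derived from mouse insulinoma cells and makes insulin. The *Thada*-activated cells were a stable line made with the CRISPR/dCas9 synergistic activation mediator (SAM) system, in which a guide RNA takes transcriptional activators to a chosen promoter and the DNA is not cut. They received a lentivirus for dCas9-VP64 and, after puromycin selection, a lentivirus for sgRNA-MS2-P65-HSF1, followed by G418 selection. The second virus thus encodes a part of HSF1 joined to other domains. Control cells carried dCas9 and a non-targeting sgRNA, and whether their viruses also encoded VP64 or P65-HSF1 is not stated in the sources used here. *Thada* activation and other differences between these lines cannot be told apart. Each condition had 3 libraries with the numbers 1 to 3. The study states for its cell work in general that experiments were repeated independently, but no source used here says from which culture each library came, so the p-values measure the spread between these libraries, part of which may be technical.

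The summed gene counts were 17272834, 17166511 and 17689611 in the control libraries 1, 2 and 3 and 17727004, 17385036 and 17224631 in the activated libraries, so that depth was nearly even. Levels per library are given in CPM, that is counts scaled to library size with TMM factors, and levels of different genes are compared in FPKM, which also divides by length. A gene was called at an adjusted p under 0.05 and a fold change over 1.5 by edgeR's quasi-likelihood test across 12516 genes. The β-cell markers *Ins1* (5220 to 10463 FPKM), *Iapp* (38202 to 68520 FPKM), *Pdx1* (92.6 to 204 FPKM), *Nkx6-1* (78.0 to 110 FPKM) and *Mafa* (52.5 to 96.8 FPKM) were present in every library. *Slc2a2*, the gene of the glucose transporter GLUT2 and a defining β-cell marker, was near 0 (0.02 to 0.21 FPKM). The hormone genes of other islet cells were also counted, with *Sst* at 126 to 350 FPKM, *Ppy* at 57.2 to 114 FPKM and *Gcg* at 14.7 to 23.7 FPKM. Acinar markers were at 0.08 FPKM or less in every library, with 1 of the 4 listed in the files, immune markers at 0.02 FPKM or less, with 1 of 2, and endothelial markers summed to 0.40 FPKM or less, with 2 of 2. In such bulk samples, fewer cells of a type and less RNA per cell cannot be told apart.

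In both conditions, replicate 3 was unlike the other 4 libraries. The first principal component held 85.6% of the variance between libraries and placed control and *Thada*-activated replicate 3 at 45.7 and 40.8, against -22.1 to -20.7 for the others. The comparison of the conditions is therefore also given from replicates 1 and 2 alone. Where libraries are paired or blocked, this goes by their numbers, and the values do not show which libraries of replicates 1 and 2 belong together.

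The 10 genes covered a wide range of levels. *Hspa8*, the constitutive cytosolic HSP70, was the most abundant per length, at 861 to 1061 FPKM. *Hsp90ab1*, the constitutive HSP90, followed at 482 to 631 FPKM, and *Hsp90aa1*, the stress-inducible HSP90, at 259 to 436 FPKM. The ranges of these 3 genes did not overlap. The chaperonin genes *Hspd1* (83.1 to 104 FPKM) and *Hspe1* (60.8 to 101 FPKM) came next and overlapped each other, and the range of *Hspe1* also overlapped that of *Dnaja1* (48.5 to 65.9 FPKM). *Hsph1* (12.4 to 34.3 FPKM) and *Dnajb1* (16.3 to 21.2 FPKM) could not be ordered. The stress-inducible HSP70 genes were the lowest, with *Hspa1a* at 2.65 to 5.24 FPKM and *Hspa1b* at 3.13 to 4.49 FPKM. Per length, *Hspa8* exceeded *Hspa1a* by 191 to 401 times. Together the 10 genes took 0.407% to 0.536% of the counts of a library, and *Hspa8* alone took 0.170% to 0.205%.

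To see whether *Thada* activation changed these genes, the conditions were compared. *Thada* itself stood at 28.1, 28.9 and 17.2 CPM in the control libraries 1, 2 and 3 and, in the same order, at 57.3, 56.2 and 49.1 CPM in the activated libraries, so every activated library lay above every control library. Its log2 fold change was 1.13 (SE 0.22, adjusted p = 1, edgeR's quasi-likelihood test), and DESeq2 without a block called it at the same value (adjusted p = 0.0185). Blocking on the replicate number gave 1.15 (SE 0.10, adjusted p = 0.00041 in the same test), and *Thada* was called by edgeR as well. From replicates 1 and 2 alone it was 0.99 (SE 0.07, adjusted p = 1.6e-17 by edgeR).

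None of the 10 heat shock genes was called between the conditions. Their log2 fold changes ran from -0.17 for *Dnaja1* to 0.02 for *Hspa1a*, with a median of -0.12, against a median of 0.00 over all tested genes (-0.00396 before rounding). The adjusted p was 1 for each by edgeR's test, and an unadjusted p under 0.05 was reached by 0 of the 10 and by 101 (0.807%) of all tested genes. Across the transcriptome edgeR called 0 of 12516 genes (0%), and DESeq2 called 5 genes and none of the 10. When the fit was blocked on the replicate number, 19 genes (0.152%) passed, and again 0 of the 10, by edgeR as by DESeq2, with 3 of them (*Hsp90aa1*, *Dnaja1* and *Hspd1*) at an unadjusted p under 0.05, as had 10.4% of all tested genes, and adjusted p-values from 0.358 to 0.937 by edgeR's test. For single genes an exact permutation test over 3 against 3 libraries (two-sided, on log2 CPM) cannot go below p = 0.1.

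Among the HSP70 genes, *Hspa8* (chr9:40800984-40810087, plus strand, GRCm38) stood at 1955, 2053 and 1972 CPM in the control libraries 1, 2 and 3 and, in the same order, at 1900, 1912 and 1665 CPM in the activated libraries. Every activated library lay below every control library, with means of 1826 ± 139 and 1993 ± 52.1 CPM (SD, n = 3). It was the only gene of the 10 whose conditions did not overlap, where 5.40% of all tested genes did not. Its log2 fold change was -0.13 (SE 0.14, adjusted p = 1, edgeR's quasi-likelihood test), and the exact permutation test gave p = 0.1, the smallest value possible. The gap between the conditions in replicates 1 and 2 was smaller than that in replicate 3, with log2 ratios of -0.04, -0.10 and -0.24 in the pairs 1, 2 and 3.

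*Hspa1a* (chr17:34969190-34972156, minus strand) and *Hspa1b* (chr17:34956436-34959238, minus strand) encode the HSP70 that is made after heat shock. These are GENCODE intervals, and the deposited table gives *Hspa1b* 3 transcripts that together span chr17:34956429-34972156, up to the same end as *Hspa1a*, so that the counted *Hspa1b* may take in reads from its neighbor. Their coding sequences of 1923 and 1926 nt are 99.4% identical, with 11 differing positions in the alignment, and how many reads fit only 1 of them was not tested. The files give counts for both that are not whole numbers, and the values of either gene alone are uncertain. *Hspa1a* stood at 7.74, 6.96 and 14.0 CPM in the control libraries 1, 2 and 3 and, in the same order, at 8.62, 9.44 and 11.2 CPM in the activated libraries. Control replicate 3 was the highest library and the conditions overlapped. *Hspa1b* stood at 10.6, 8.27 and 12.0 CPM in the control libraries 1, 2 and 3 and, in the same order, at 8.74, 9.42 and 11.8 CPM in the activated libraries. Both conditions had their highest value in replicate 3 and their ranges overlapped. With the counts of both genes added, the levels were 18.4, 15.2 and 26.0 CPM in the control libraries 1, 2 and 3 and, in the same order, 17.4, 18.9 and 23.0 CPM in the activated libraries. The log2 fold change of the sum was -0.01 (SE 0.23, adjusted p = 1, edgeR's quasi-likelihood test).

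The partners of HSP70 also overlapped between the conditions. *Hsph1* (chr5:149614287-149636376, minus strand), which encodes the HSP110 that exchanges nucleotide on HSP70, stood at 106, 111 and 40.3 CPM in the control libraries 1, 2 and 3 and, in the same order, at 97.0, 95.1 and 46.1 CPM in the activated libraries. Both replicate 3 libraries were far below the other 4, and the spread within a condition exceeded the difference between conditions (log2 fold change -0.11, SE 0.46). *Dnaja1* (chr4:40722150-40737149, plus strand), a J-domain protein of the cytosol, stood at 199, 212 and 182 CPM in the control libraries 1, 2 and 3 and, in the same order, at 191, 180 and 155 CPM in the activated libraries. It was lower in the activated library of each pair, by a log2 fold change of -0.17 (SE 0.13, adjusted p = 1, edgeR's quasi-likelihood test), and the conditions overlapped. *Dnajb1* (chr8:83608193-83612653, plus strand), the HSP40 that is induced together with HSP70, stood at 58.0, 57.6 and 55.7 CPM in the control libraries 1, 2 and 3 and, in the same order, at 58.7, 60.6 and 46.1 CPM in the activated libraries. Activated replicate 3 was the lowest library, and the other 5 lay between 55.7 and 60.6 CPM. The deposited table spans *Dnajb1* farther, over chr8:83608175-83635489.

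Of the HSP90 genes, *Hsp90aa1* (chr12:110690605-110702728, minus strand) stood at 1089, 1168 and 775 CPM in the control libraries 1, 2 and 3 and, in the same order, at 1025, 999.5 and 689.6 CPM in the activated libraries. *Hsp90ab1* (chr17:45567775-45573271, minus strand) stood at 1459, 1475 and 1347 CPM in the control libraries 1, 2 and 3 and, in the same order, at 1392, 1421 and 1123 CPM in the activated libraries. Each was lower in the activated library of every pair, and the ranges of the conditions overlapped for both. The log2 fold changes were -0.16 (SE 0.24) and -0.12 (SE 0.15), and edgeR's quasi-likelihood test gave each an adjusted p of 1.

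*Hspd1* encodes HSP60 and *Hspe1* its lid HSP10. They lie head to head on chromosome 1, *Hspd1* on the minus strand (chr1:55077835-55088243) and *Hspe1* on the plus strand (chr1:55088132-55091307), and their models overlap by 112 bp. *Hspd1* stood at 224, 226 and 201 CPM in the control libraries 1, 2 and 3 and, in the same order, at 203, 202 and 181 CPM in the activated libraries, a log2 fold change of -0.15 (SE 0.11, adjusted p = 1, edgeR's quasi-likelihood test). *Hspe1* stood at 42.2, 36.4 and 61.4 CPM in the control libraries 1, 2 and 3 and, in the same order, at 37.6, 37.8 and 63.2 CPM in the activated libraries, a log2 fold change of -0.02 (SE 0.29). *Hspd1* was lower in the activated library of each pair by about the same amount (log2 ratios of -0.14, -0.16 and -0.15), while *Hspe1* had log2 ratios of -0.17, 0.05 and 0.04 and was highest in the replicate 3 library of each condition. How the counting used the strand is not stated in the sources used here, so reads in the overlap of these genes cannot be assigned with certainty. The same holds for *Hspa1a*, of which 2225 bp overlap *Gm20481* on the other strand, and for *Dnaja1*, of which 608 bp overlap *Smu1*.

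Within the pairs, 5 of the 10 genes (*Hspa8*, *Hsp90aa1*, *Hsp90ab1*, *Dnaja1* and *Hspd1*) were lower in the activated library of all 3 pairs, where 16.7% of all tested genes were. None of the 10 was higher in all 3 pairs, where 16.3% of all tested genes were. The pairs go by the library numbers alone. The 5 lower genes are also among the 6 most abundant of the 10 per length. Their log2 fold changes with the replicate block lay between -0.18 and -0.13 and none passed the test. Under every other setting tried their log2 fold changes were below 0 too, except that of *Hsp90aa1* without *Thada*-activated replicate 3, at 0.0021. Without that library *Hsp90ab1* had -0.022, *Hspa8* -0.065 and *Dnaja1* -0.091.

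Replicates 1 and 2 alone, 2 libraries against 2, had a smaller spread. In them 0.545% of all tested genes were called, and 0 of the 10 heat shock genes, while 5 of the 10 had an unadjusted p under 0.05 by edgeR, as had 15.8% of all tested genes. *Hsp90aa1* was the only one of the 10 with an adjusted p under 0.05, as had 3.41% of all tested genes, at a log2 fold change of -0.16 (SE 0.05, adjusted p = 0.0401 by edgeR) that did not reach a fold of 1.5. With the replicate number as a block in these 4 libraries, a fit chosen after seeing the data, its adjusted p was 0.111 by edgeR and it no longer passed. Without the block, *Hsph1* followed at -0.18 (SE 0.06, adjusted p = 0.0579 by edgeR), then *Hspd1* at -0.15 (SE 0.05, adjusted p = 0.0926) and *Dnaja1* at -0.15 (SE 0.05, adjusted p = 0.116). *Hspa1a* had a positive value of 0.29 (SE 0.14, adjusted p = 0.264 by edgeR), and *Hspa8* stood at -0.07 (SE 0.04).

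Of the markers of other cell types, the ductal keratin gene *Krt19* was at 0.28 to 0.46 FPKM in the control libraries and at 0.89 to 2.14 FPKM in the activated libraries, so that the conditions did not overlap. *Sox9*, a defining ductal gene, was at 0.01 FPKM or less in every library. The part of such cells in the values of the heat shock genes was not tested.

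**Figure D1:**
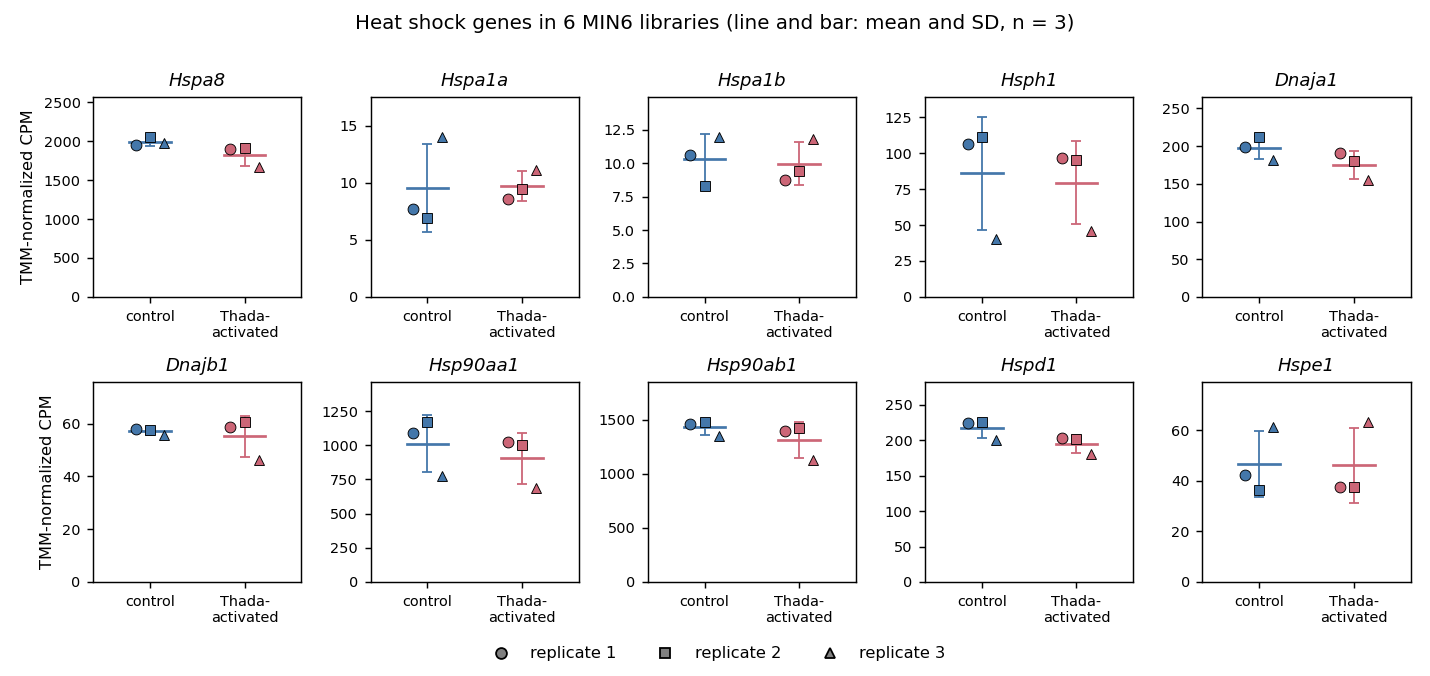
Level of each heat shock gene in TMM-normalized CPM (linear axis from 0, a scale of its own in each panel) in control and *Thada*-activated cells. Points are libraries with a symbol for each replicate number, and lines and bars give mean and SD (n = 3). The conditions overlap for every gene but *Hspa8*, and the triangles of replicate 3 lie apart for *Hsph1*, *Hsp90aa1* and *Hspe1*.

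The replicate 3 libraries were then compared with those of replicates 1 and 2, 2 libraries against 4 with the condition in the model. Because the split was chosen with the position of replicate 3 known, these calls describe the libraries. *Hsph1* was lower in replicate 3, and *Hspe1* and *Hspa1a* were higher. These 3 of the 10 genes were called, in a comparison that called 31.1% of all 12516 genes, and the share of the 10 was thus close to that of the transcriptome. The 2 higher genes stand against 15.7% of all genes called higher, and the lower gene against 15.4% called lower. The median log2 difference was -0.19 over the 10 genes and 0.00 over all tested genes (0.00105 before rounding).

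*Hsph1* had the largest difference of the 10. Its mean fell from 102 ± 7.67 CPM in the 4 libraries of replicates 1 and 2 (SD) to 43.2 CPM in replicate 3, a log2 difference of -1.24 (SE 0.08, adjusted p = 1.13e-08, edgeR's quasi-likelihood test). Per length, *Hsph1* stood at 0.0320, 0.0323 and 0.0124 of *Hspa8* in control replicates 1, 2 and 3 and at 0.0305, 0.0294 and 0.0168 in *Thada*-activated replicates 1, 2 and 3. The ratio of the nucleotide exchange factor to its main HSP70 was lowest in both replicate 3 libraries.

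*Hspe1* rose from 38.5 ± 2.55 CPM (SD) to 62.3 CPM, a log2 difference of 0.70 (SE 0.07, adjusted p = 7.27e-07, edgeR's quasi-likelihood test). Its partner *Hspd1* had a log2 difference of -0.16 (SE 0.05, adjusted p = 0.0126 by edgeR), below a fold of 1.5 and in the other direction. The ratio of *Hspe1* to *Hspd1* in FPKM was 0.674, 0.585 and 1.11 in the control libraries 1, 2 and 3 and, in the same order, 0.662, 0.665 and 1.22 in the activated libraries. HSP10 transcripts were fewer than HSP60 transcripts per length in replicates 1 and 2 and more numerous in replicate 3, in both conditions.

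*Hspa1a* was called at a log2 difference of 0.62 (SE 0.14, adjusted p = 0.00104, edgeR's quasi-likelihood test), just above a fold of 1.5. Without control replicate 3 the value was 0.31 (adjusted p = 0.0751 by edgeR), with activated replicate 3 as the only library of its kind, and without control replicate 2 it was 0.53 (adjusted p = 0.00754), so that this call rested on single libraries. *Hspa1b* had a log2 difference of 0.36 (SE 0.12, adjusted p = 0.0156), and the sum of both genes had 0.49 (SE 0.10, adjusted p = 0.000497 by the same test), which was not called.

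The HSP90 genes and the remaining partners were lower in replicate 3 by less than a fold of 1.5. *Hsp90aa1* came closest, with a mean of 732 CPM in replicate 3 against 1070 ± 75.3 CPM (SD) in the other 4 libraries and a log2 difference of -0.55 (SE 0.06, adjusted p = 7.1e-07, edgeR's quasi-likelihood test). *Hsp90ab1* (-0.22), *Dnaja1* (-0.22) and *Dnajb1* (-0.21) had smaller log2 differences, and *Hspa8* (-0.11, adjusted p = 0.11 by edgeR) did not pass at any fold. Single libraries moved these values. Without *Thada*-activated replicate 3 *Dnajb1* had -0.053 and no longer passed (adjusted p = 0.57 by edgeR), as it did not without either of the other activated libraries, *Hsp90ab1* had -0.12 and *Hspa8* -0.022, and without control replicate 3 they had -0.37, -0.32 and -0.19 in this order, where *Hspa8* passed by adjusted p alone (0.00173 by edgeR). The ratio of *Hsp90aa1* to *Hsp90ab1* in FPKM was 0.651, 0.691 and 0.502 in the control libraries 1, 2 and 3 and, in the same order, 0.643, 0.614 and 0.537 in the activated libraries, lowest in replicate 3 of both conditions. By adjusted p alone 9 of the 10 genes passed, 6 lower and 3 higher, where 68.6% of all tested genes passed. For 8 of the 10 genes both replicate 3 libraries lay outside the range of the other 4 on one side, as did those of 71.8% of all tested genes, the exceptions being *Hspa8* and *Dnaja1*.

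**Figure D2:**
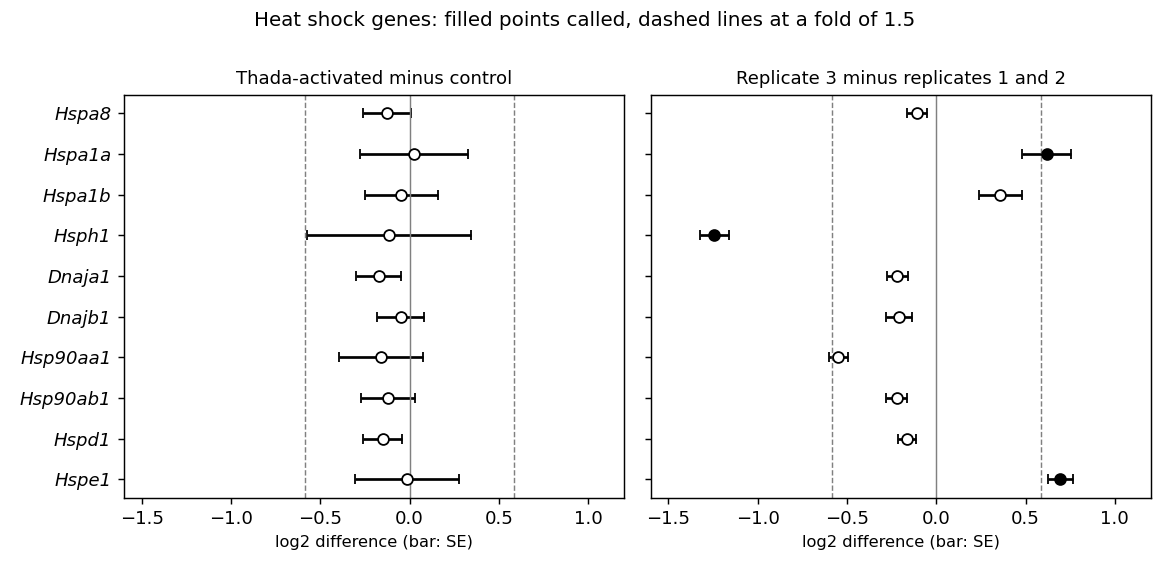
Log2 difference of each heat shock gene between conditions (left) and between replicate 3 and replicates 1 and 2 (right). Bars give the SE derived from the F statistic of edgeR's quasi-likelihood test. Filled points were called, and dashed lines mark a fold of 1.5. No point is filled on the left, and *Hsph1*, *Hspe1* and *Hspa1a* are filled on the right.

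Other quantities moved with replicate 3. Of the islet hormones, *Sst* was at 156 and 126 FPKM in replicate 3 of control and *Thada*-activated cells and at 295 to 350 FPKM in the other libraries, and *Ppy* was at 86.7 and 114 FPKM against 57.2 to 69.9 FPKM. The alpha cell gene *Gcg* was at 14.7 and 18.9 FPKM against 19.5 to 23.7 FPKM (log2 difference -0.34, adjusted p = 0.0165 by edgeR), and *Irx2* had 0.49 (adjusted p = 0.0262). These are 2 of the 3 listed alpha cell markers, led by *Gcg*, and summed to 25.2, 22.2 and 16.6 FPKM in the control libraries 1, 2 and 3 and, in the same order, to 20.7, 23.4 and 20.9 FPKM in the activated libraries. The ductal gene *Krt19* had -0.83 (adjusted p = 0.0454 by edgeR). *Ins1* was at 10463 and 10076 FPKM in replicate 3 and at 5220 to 6610 FPKM in the others, and *Pdx1* at 92.6 and 99.1 FPKM against 183 to 204 FPKM. Both listed markers of delta cells summed to 350, 300 and 156 FPKM in the control libraries 1, 2 and 3 and, in the same order, to 325, 295 and 126 FPKM in the activated libraries, nearly all of it *Sst*, while *Hhex*, the other one, was at 0.04 FPKM or less. The 8 β-cell markers, led by *Ins2*, summed to 376518 and 298644 FPKM in replicate 3 and to 256673 to 277585 FPKM in the others. That sum follows *Ins2*, since *Pdx1* (-1.03), *Mafa* (-0.61), *Iapp* (-0.58), *Nkx6-1* (-0.33) and *G6pc2* (-0.26) had log2 differences below 0. Of the fibroblast markers, 2 of the 3 listed were in the files and summed to 0.57 and 0.65 FPKM in replicate 3 and to 0.18 to 0.33 FPKM in the others, with *Col1a1* the most abundant and *Col3a1* at 0.04 FPKM or less. The endothelial marker *Pecam1* was at 0.40 and 0.35 FPKM in replicate 3 and at 0.11 to 0.16 FPKM in the others, and *Cdh5* at 0.02 FPKM or less. What part such cells may have in the difference was not tested. Gene length moved with the difference too. Across 11450 genes with a mean of at least 1 FPKM, the median log2 difference of replicate 3 was 0.19 in the bin with the shortest transcripts, which holds *Hspe1*, and -0.21 in the bin with the longest, which holds none of the 10, with 5 bins of 2290 genes by the length that counts and FPKM imply. *Hsph1* and *Dnaja1*, the longest of the 10, lie in a bin with a median of -0.07. The part of these quantities in the differences of the heat shock genes was not tested.

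It was also tested whether the effect of the condition differed between replicate 3 and replicates 1 and 2. Replicate 3 has a single library of each condition. The spread thus comes from replicates 1 and 2 alone, and the test cannot show that the effect differed. Of the 10 genes, only *Hsph1* passed by adjusted p, as did 6.96% of all tested genes, and 0 reached a fold of 1.5 as well by edgeR or DESeq2, against 1.81% of all tested genes by edgeR. An unadjusted p under 0.05 by edgeR was reached by 5 of the 10 (*Hsph1*, *Hspa1a*, *Dnajb1*, *Hsp90ab1* and *Hspa8*) and by 21.1% of all tested genes. The activated library held less *Hsph1* than the control library in pairs 1 and 2 (log2 ratios of -0.13 and -0.23) and more in pair 3 (0.19), a difference of 0.37 (SE 0.11, adjusted p = 0.0251, edgeR's quasi-likelihood test). DESeq2 gave the same difference an adjusted p of 0.312. *Hspa1a* had a difference of -0.62 (SE 0.21, adjusted p = 0.0606 in edgeR's test) and *Dnajb1* one of -0.32 (SE 0.11, adjusted p = 0.0731), neither of which passed. *Thada* itself had log2 ratios of 1.03, 0.96 and 1.51 in the pairs 1, 2 and 3 and a difference of 0.52 between replicate 3 and the others. Its ratio was largest in pair 3, and whether the activation differed there cannot be told from a single pair.

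The wider chaperone system was described with a list of 64 other genes in 7 groups, of which 63 were in the files and 60 were tested. None of the 60 was called between the conditions, with or without the replicate block, and an unadjusted p under 0.05 in edgeR's test was reached by 0 of them without the block, beside 0.807% of all tested genes, and by 5 with it, beside 10.4%. DESeq2 also called 0 of them. Their median log2 fold change was -0.04. Among the heat shock factors, *Hsf1* stood at 43.6, 40.0 and 59.1 CPM in the control libraries 1, 2 and 3 and, in the same order, at 42.5, 46.1 and 44.6 CPM in the activated libraries, with control replicate 3 the highest library. Its log2 fold change was -0.10 (SE 0.17, adjusted p = 1, edgeR's quasi-likelihood test). The HSF1-binding protein gene *Hsbp1* had a log2 fold change of 0.07 and *Hsf2* one of -0.13.

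In the other groups, too, no gene was called between the conditions. The HSP70 relatives *Hspa13* and *Hspa12b* had log2 fold changes of -0.10 and -0.26. From replicates 1 and 2 alone *Hspa12b* had -0.41 (SE 0.12, adjusted p = 0.0345 by edgeR), an adjusted p under 0.05 at a fold under 1.5. The J-domain genes *Dnajb6* and *Dnajb4* had 0.01 and -0.16. The nucleotide exchange factors *Bag1* and *Bag4* had -0.03 and -0.15. *Stip1*, which links HSP70 to HSP90, had -0.10, and *Cacybp* had -0.16. *Hspa9*, the mitochondrial HSP70, had -0.25, and the small heat shock protein genes *Hspb6* and *Hspb1* had -0.17 and 0.19. Each of these genes was the most abundant of its group or the one with the largest estimate, and none was called.

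In replicate 3, 13 of the 60 genes were called, 8 higher and 5 lower, beside the 31.1% of all genes. Without control replicate 3 they were 5 higher and 6 lower, and without *Thada*-activated replicate 3 they were 12 higher and 4 lower. Of the mitochondrial group 4 of 13 genes were called higher and 1 lower, where 15.7% and 15.4% of all tested genes were. The median log2 difference of this group was 0.51. *Hspa9*, which pulls proteins into the matrix and folds them there, rose by a log2 difference of 0.60 (SE 0.07, adjusted p = 1.55e-06, edgeR's quasi-likelihood test), with 329, 354 and 570 CPM in the control libraries 1, 2 and 3 and, in the same order, 317, 308 and 427 CPM in the activated libraries. *Hscb*, a J-domain protein of iron-sulfur cluster assembly, rose by 1.43, and the subunits *Clpx* and *Clpp* of the matrix protease ClpXP rose by 0.64 each. *Spg7*, a subunit of the inner membrane m-AAA protease, fell by 1.07 on the log2 scale. The called mitochondrial genes thus did not all move one way, and *Hspd1* was not called.

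Of the 8 other cytosolic J-domain genes, 3 were higher in replicate 3, where 15.7% of all tested genes were, namely *Dnajb4* (1.10), *Dnaja4* (0.70) and *Dnaja2* (0.59), while *Dnaja1* and *Dnajb1* had log2 differences below 0. Of the 8 other HSP70 and HSP110 relatives, *Hspa12b* (-1.68) and *Hspa13* (-0.64) were called lower, where 15.4% of all tested genes were. *Hsf4* was the only called heat shock factor (0.85), and *Unc45a*, a co-chaperone for myosin folding, the only called HSP90 co-chaperone of 16 (-0.72). None of the 7 nucleotide exchange factors was called by edgeR or DESeq2, and 5 had an adjusted p under 0.05 by edgeR, where 68.6% of all tested genes had, with *Bag1* at 0.49 and *Hspbp1* at -0.50. Of the small heat shock proteins 4 were tested and *Hspb3* was called lower (-1.50), at 0.23 to 1.27 CPM in all libraries, and it was not called by DESeq2 (adjusted p = 0.0694) nor without *Thada*-activated replicate 3 (adjusted p = 0.0606 in edgeR's test). Without control replicate 3, *Clpp* (0.42), *Dnaja2* (0.51) and *Hspa9* (0.45) no longer reached a fold of 1.5, nor did *Clpx* (0.53) without *Thada*-activated replicate 3 and *Dnaja2* (0.56) and *Hspa9* (0.55) without control replicate 1.

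The mean standardized log2 CPM of the 10 genes was 0.39, 0.31 and 0.14 in control and -0.02, 0.05 and -0.86 in *Thada*-activated replicates 1, 2 and 3, so that activated replicate 3 was the lowest library. This mean was followed most closely by *Hsp90ab1* and *Hspa8* (Pearson r of 0.96 each over the 6 libraries), whereas *Hspe1* (-0.60), *Hspa1a* (-0.45) and *Hspa1b* (-0.43) ran against it. The mean includes each of these genes, which raises the r of each. Among 9674 other genes with at least 10 CPM, the most similar over the 6 libraries were *Baz2a*, *Psme3*, *Mef2d*, *Kcnk1* and *Dusp4*, with Pearson r from 0.987 to 0.991, and 41 genes had an r above 0.95. *Mcf2l*, *Sms* and *Mpnd* ran most against it, with r from -0.992 to -0.984. With 6 libraries, of which replicate 3 stood apart, these values describe likeness only.

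HSF1 binds repeats of GAA in alternating orientation, and the promoters were read for such repeats because many of these genes are known targets of HSF1. The RefSeq windows (GRCm38.p6) hold 250 bases before and 50 after each annotated start. Windows of 7 of the 10 genes were found by symbol, 12 in all. None was found for *Hspa8*, *Hsp90aa1* and *Hsp90ab1*, whose promoters were therefore not read. The motifs GAANNTTC and TTCNNGAA, each of which reads the same on both strands, occurred in 7 of the 12 windows, which belong to 6 of the 7 genes, and 15.1% of all 32851 windows hold at least one of them. The longer forms GAANNTTCNNGAA and TTCNNGAANNTTC, which are each other's reverse complement and contain both shorter motifs, occurred in 4 of the 12 windows, against 0.603% of all windows. These 4 belong to *Hspd1*, *Hspe1* and *Hsph1*, of which *Hspd1* and *Hspe1* share 1 element and the windows of *Hsph1* overlap. The windows of *Dnajb1* held no match. A match is a description of the letters and not evidence of binding.

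*Hspd1* and *Hspe1* share a run of 4 such units, shown because *Hspe1* was called in replicate 3 and *Hspd1* was not. It covers 18 bases from 89 to 72 bases before the *Hspe1* start, and from 144 to 127 bases before the *Hspd1* start at 55087932. Another annotated *Hspd1* start, at 55088243, had no match in its window. The element is shown in capitals as read on the strand of each gene, within chr1:55088053-55088082.
*Hspe1*: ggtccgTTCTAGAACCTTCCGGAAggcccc
*Hspd1*: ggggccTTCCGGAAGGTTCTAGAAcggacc
In the inducible HSP70 genes the 250 bases before the start differ at 3 positions, and both hold the same unit pair from 104 to 97 bases before it, in chr17:34972242-34972271 for *Hspa1a* and chr17:34959324-34959353 for *Hspa1b*, both read on the minus strand. The stretch around it, identical in both, shows how alike these copies are.
*Hspa1a*: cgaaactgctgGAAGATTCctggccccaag
*Hspa1b*: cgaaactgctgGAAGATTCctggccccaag
*Hsph1*, the gene with the largest difference in replicate 3, holds a unit pair from 33 to 26 bases before its start at 149636336 (chr5:149636351-149636380, minus strand). Its match to the longer form lies 36 to 48 bases after this start and is not printed.
*Hsph1*: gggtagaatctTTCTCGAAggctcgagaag
*Dnaja1* holds a unit pair from 124 to 117 bases before its start at 40722468 (chr4:40722333-40722362, plus strand), and its level differed by less than a fold of 1.5 in both comparisons.
*Dnaja1*: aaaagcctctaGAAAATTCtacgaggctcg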

How the data were processed

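RNA of 6 MIN6 libraries, 3 for each condition, had been sequenced on a BGISEQ-500. The submitters' processing notes name GRCm38, Bowtie2, RSEM and DESeq2 without versions or roles. The deposited per-library tables hold estimated counts for each gene, of which 91.1% to 92.0% are whole numbers (exactly, with a tolerance of 0 and zeros included). The FPKM values, made by the authors, in which the counts are scaled for length and depth, were read from 6 columns of the table of the whole series. A further 12 columns with TPM and counts, 6 columns of means and 3 columns with the authors' own comparison (fold changes and p-values) in that table were not used.

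Counts were rounded and fitted with edgeR 4.0.16 (filterByExpr, TMM, robust quasi-likelihood, Benjamini-Hochberg adjustment over 12516 genes). Genes were called at an adjusted p under 0.05 and a fold over 1.5. The SE printed with an edgeR value is its absolute log2 fold change divided by the square root of the test's F statistic. Fits were for the condition, for replicate 3 against replicates 1 and 2 with the condition as a term, and for the interaction of both, which leaves 2 residual degrees of freedom. Alternatives used DESeq2 1.42.0, limma 3.58.1 on log2(FPKM + 1) and log2(FPKM + 0.1), other filters and scalings, the replicate number as a block, and each library left out in turn. The scripts were tested on simulated data.

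One count was worth 0.0564 to 0.0583 CPM. The biological coefficient of variation was 0.253 with the condition alone and 0.063 with the block. Deviations from the condition means correlated between libraries of the same number (Pearson r across genes of 0.781, 0.771 and 0.905 for numbers 1, 2 and 3). Crossing numbers 1 and 2 gave 0.793 and 0.799, so these values set replicate 3 apart but do not pair the libraries 1 and 2. The pairs and the block follow the numbers in the labels, which name no shared culture or day. No pair of libraries of a condition was near identical, with a chi-square per degree of freedom of at least 1.83.

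The members and the lists of other chaperones and of cell type markers were chosen with earlier results of these data known, and 1 marker of these lists is left out of the text, with the sum that holds it. Of the other chaperones, each called gene was named, up to 4 per direction and group, and otherwise the most abundant gene and the one with the largest estimate among those at a mean of 1 CPM or more. The genes most like the 10 were taken among those with at least 10 CPM. Gene models were those of GENCODE M21 on GRCm38, and promoter windows were matched by symbol to RefSeq on GRCm38.p6.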

Additional observations from a re-analysis of the deposited data

Results flagged for a closer look

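Among the 10 heat shock genes and the 60 other chaperone genes tested, the interaction term of edgeR's quasi-likelihood fit flagged the genes below. None of these passed in DESeq2, where *Hspa12b* was given no adjusted p. The interaction term sets the difference between the conditions in replicate 3 against that in replicates 1 and 2. The flagged genes are 1 of the 10 heat shock genes and 7 of the 60 other chaperone genes tested, beside 6.96% of all tested genes. Replicate 3 has a single library of each condition, so these flags cannot show that the difference changed. Values are the log2 condition effect in replicate 3 minus that in replicates 1 and 2.

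*Hsf1*, the heat shock factor, gave -0.49 (adjusted p = 0.00499 by edgeR's test and 0.258 by DESeq2), and *Hsph1*, the HSP110 gene, gave 0.37 (adjusted p = 0.0251 and 0.312). *Hspb8*, a small heat shock protein gene with 62.3, 63.8 and 104 CPM in the control libraries 1, 2 and 3 and 63.2, 62.3 and 80.0 CPM in the activated libraries, gave -0.37 (adjusted p = 0.0145 by edgeR's test and 0.293 by DESeq2). In each of the mitochondrial genes control replicate 3 was the highest library. The protease gene *Lonp1*, with 111, 108 and 152 CPM in the control libraries and 109, 108 and 110 CPM in the activated libraries, gave -0.44 (adjusted p = 0.000939 by edgeR's test and 0.0524 by DESeq2). *Clpp*, with 39.2, 38.2 and 69.2 CPM and 41.3, 38.0 and 53.2 CPM, gave -0.42 (adjusted p = 0.0165 by edgeR's test and 0.376 by DESeq2). *Hspa9* gave -0.29 (adjusted p = 0.0274 by edgeR's test and 0.135 by DESeq2).

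*Hspa12b*, an HSP70 relative with 14.3, 12.5 and 2.81 CPM in the control libraries and 9.63, 10.6 and 4.44 CPM in the activated libraries, gave 1.06 (adjusted p = 0.0172 by edgeR's test, none given by DESeq2). *Cdc37l1*, an HSP90 co-chaperone gene with 89.0, 93.5 and 101 CPM and 86.0, 89.1 and 122 CPM, gave 0.34 (adjusted p = 0.0184 by edgeR's test and 0.304 by DESeq2). Each of these differences rests on a single pair of libraries for replicate 3.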

How the results depend on the processing

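None of the 10 genes was called between the conditions under any setting, and the 60 other chaperone genes gave 0 calls there under each setting as well. The number of all genes called moved from 0, to 5 with DESeq2, 42 with replicate 3 as a batch term, 68 with replicates 1 and 2 only and 19 with the replicate block. In each of these 4 settings *Thada* was a called gene too (with the block 1.15, adjusted p = 0.00041 by edgeR's test), and the block changed no other call named here. Block settings chosen after seeing the data called 70 genes from replicates 1 and 2, 43 without both replicate 1 libraries, 18 without both replicate 2 libraries, 19 with *Hspa1a* and *Hspa1b* added, 18 by DESeq2 and 22 with library sizes that leave out the 20 top genes. For the interaction DESeq2 called 41 genes and edgeR 227.

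Between the conditions, the log2 fold changes of genes that were called in no setting changed sign in some settings, and the cause was not tested. With the replicate block and without both replicate 1 libraries, *Hspa1b* had 0.076, *Hspe1* 0.047 and *Hspa12b* 0.089. With the block and without both replicate 2 libraries, *Hspa1a* had -0.11, *Hsph1* 0.019, *Hsbp1* -0.022, *Dnajb6* -0.0039 and *Dnajb4* 0.031. From replicates 1 and 2 alone, with or without the block, *Dnajb1* had 0.046 and *Hsf1* 0.082. Without the 20 top genes in the library size *Hspe1* had 0.00056. In a separate setting, with the counts of *Hspa1a* and *Hspa1b* added, the sum had -0.011. With each library left out in turn the values ran from -0.16 to 0.40 (*Hspa1a*), -0.18 to 0.076 (*Hspa1b*), -0.32 to 0.0021 (*Hsp90aa1*), -0.45 to 0.16 (*Hsph1*), -0.12 to 0.062 (*Dnajb1*), -0.31 to 0.23 (*Hspe1*), -0.091 to 0.30 (*Hsbp1*), -0.28 to 0.085 (*Hspa13*), -0.71 to 0.11 (*Hspa12b*), -0.13 to 0.16 (*Dnajb6*), -0.58 to 0.35 (*Dnajb4*), -0.21 to 0.15 (*Bag1*), -0.23 to 0.013 (*Bag4*), -0.42 to 0.038 (*Hspa9*), -0.27 to 0.031 (*Hspb6*) and -0.21 to 0.085 (*Hsf1*).

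For replicate 3, *Hsph1* (-1.43 to -1.06) and *Hspe1* (0.64 to 0.75) were called under every setting. *Hspa1a* was not called by limma on log2(FPKM + 1) (0.49, adjusted p = 0.00295), without control replicate 2 or 3, or summed with *Hspa1b*. Without the filter on low counts, *Dnaja2* and *Hspa9* (0.58 each) fell short of the fold, as did *Dnaja2* (0.58) by limma on log2(FPKM + 1). Where 1 replicate 3 library is left out, the other is assumed to vary like the rest. Depth limits the low genes, such as *Hspb3*.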
